A study of Mus musculus with 6 samples.

Results

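The transcriptome described here is that of WT regulatory T cells (Tregs), read from the 3 libraries labelled WT out of the 6 libraries of the series. The rule, set with earlier results of these data known, takes every library whose title says WT and uses no expression value. The study asked whether JunB, which pairs with Fos and BATF proteins to form AP-1, controls the suppressive function of Tregs, and sequenced RNA of Tregs purified by flow cytometry. The WT cells came from C57BL/6 mice aged 3 months with the genotype Foxp3YFP-CrexJunb+/+: the Foxp3 locus drives the Cre recombinase with the fluorescent protein YFP and both Junb alleles are intact. The other 3 libraries, of the genotype with floxed Junb, carry the same Cre allele, and were used only to set the scale of the counts. Neither the organ the cells came from nor the sorting gate is stated in the sources used here, and the labels do not say whether each library is a separate animal, so the spread below may be in part technical. With 1 group there is no contrast, and every value below is a description without a test.

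Tregs are CD4 T cells that restrain other immune cells. The transcription factor FOXP3 defines the lineage, the high-affinity interleukin-2 receptor chain CD25 (encoded by Il2ra) lets the cells compete for interleukin-2, and the Ikaros-family factor Helios (Ikzf2) marks most Tregs that arise in the thymus. Resting Tregs circulate through lymphoid organs like naive T cells, whereas effector Tregs carry activation receptors and suppress through CTLA-4, adenosine-producing surface enzymes, TGF-beta activation and cytokines.

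The 3 WT libraries held 34341613, 33784183 and 41231173 counts in replicates 1, 2 and 3, and 25892, 26048 and 25697 genes had at least 1 count in them. Values are counts per 1e6 counts (CPM) after TMM scaling, given in the order of replicates 1, 2 and 3. CPM is the share of reads a gene takes. A long transcript gives more reads, so an order of genes by CPM is an order by share of reads, and levels of different genes are compared as CPM per kilobase of exon (CPM per kb). Spread is given as the coefficient of variation (CV, the SD as a percent of the mean) and as the ratio of the highest to the lowest library, here called 2-fold where it is at least 2 in a gene with a mean of at least 10 CPM. Of the 10165 genes with that mean, 1237 (12.2%) were 2-fold, and that share is the background for each gene group below. The median CV over those genes was 17.0% and their median ratio 1.39. The 2-fold share fell with level, from 21.1% at 10 to 30 CPM to 6.05% at 30 to 100 CPM. It was 3.62% at 100 to 300 CPM and 1.73% at 300 CPM or more. The share of a gene group therefore also depends on the level of its members. The count of 2-fold genes was 508 of 10026 without replicate 2, 567 of 10183 without replicate 3 and 920 of 10165 without replicate 1. RNA of Xist, which females transcribe from the inactive X chromosome, was at 291, 251 and 333 CPM, and the Y-linked genes Ddx3y, Uty, Kdm5d and Eif2s3y each stayed below 0.4 CPM in all 3 libraries, so no library stood apart in sex.

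The markers that define Tregs were present in all 3 libraries. Foxp3 (chromosome X, 7573644 to 7595245, plus strand) was at 39.5, 32.7 and 36.6 CPM, a mean of 36.3 ± 3.41 (SD, n = 3). Ikzf2 (chromosome 1, 69531214 to 69687245, minus strand) was at 471, 421 and 475 CPM, a mean of 456 ± 29.8 (SD, n = 3). Both varied little, with a ratio of highest to lowest library of 1.21 for Foxp3 and 1.13 for Ikzf2. Il2ra (chromosome 2, 11642807 to 11693193, plus strand) was at 200.1, 173 and 138 CPM, a mean of 170.4 ± 31.2 (SD, n = 3), lowest in replicate 3. Izumo1r (chromosome 9, 14885814 to 14903949, minus strand), which encodes folate receptor 4, was at 754, 631 and 800.2 CPM, a mean of 729 ± 87.4 (SD, n = 3), lowest in replicate 2. Per length the order was Izumo1r at 314 CPM per kb, Ikzf2 at 39.2, Il2ra at 29.8 and Foxp3 at 7.93. Foxp3 thus took a small share of the reads, at rank 4880 of all genes by CPM, although it names the lineage. Exons of Foxp3 overlap those of Ccdc22, Flicr, Gm36995 and Ppp1r3f, and exons of Ikzf2 overlap those of Gm29114, so their counts are less certain than those of Il2ra and Izumo1r. Positions are of GRCm38, the assembly that mm10 names.

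The start of Foxp3 is shown because the gene defines these cells and carries the Cre allele. The 250 bases before its RefSeq start (GRCm38.p6, chrX:7579426-7579675, plus strand, 5′ to 3′) are printed with the TATAAA box in capitals, which begins 32 bases before the start.
Foxp3: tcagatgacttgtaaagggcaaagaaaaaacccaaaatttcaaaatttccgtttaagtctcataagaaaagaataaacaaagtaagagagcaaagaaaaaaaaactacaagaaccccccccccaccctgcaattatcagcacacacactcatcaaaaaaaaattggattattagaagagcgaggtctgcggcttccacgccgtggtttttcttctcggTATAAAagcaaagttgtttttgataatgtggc
TATAAA stood on either strand of the 250-base window of 1 of the 18 Treg identity genes with a window, namely Foxp3, and of 13% of the 27025 genes in the RefSeq promoter table. The AP-1 letters TGANTCA (where N is any base) were found on either strand in 0 of those 18 windows and in 6.87% of all windows. A match or its absence describes these letters in this window only.

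The wider Treg identity list held 28 genes, all matched. All 28 had a mean of at least 1 CPM, 26 of at least 10 and 15 of at least 100. Their summed level was nearly the same in the 3 libraries, at 4523, 4292 and 4465 CPM. Among the surface receptors of the tumour necrosis factor family, Tnfrsf4 (OX40) was at 386, 331 and 401 CPM and Tnfrsf18 (GITR) at 284, 285 and 388 CPM. Tnfrsf18 was highest in replicate 3, whereas Tnfrsf9 (CD137, which marks recent activation) was lowest there, at 158, 151 and 82.7 CPM. Tnfrsf1b, the TNF receptor that supports Treg growth, was at 179, 189 and 163 CPM. Of the interleukin-2 receptor chains, the shared beta chain Il2rb was at 484, 439 and 426 CPM. Ctla4, the inhibitory receptor that takes up CD80 and CD86, was at 159.7, 146 and 142 CPM, and Tigit, another inhibitory receptor, at 88.3, 91 and 88.8 CPM. These last genes differed by little between libraries, with a CV of 6.34% for Ctla4 and 1.64% for Tigit. Nrp1, a co-receptor common on thymic Tregs, had a mean of 172 CPM, the tetraspanin Cd81 163, the actin-capping gene Capg 241, the orphan receptor Gpr83 102 and the enkephalin precursor Penk 99.2. The Ikaros-family members Ikzf4 (Eos) and Ikzf3 (Aiolos) had means of 130.0 and 59.7 CPM, and Ikzf3 was highest in replicate 2 at 46.7, 80.9 and 51.3 CPM. Swap70 had a mean of 44.3 CPM, the skin-homing receptor Ccr8 29.7, the cytokine signal inhibitor Socs2 20.7, and Plagl1 6.94.

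Of the 26 identity genes of at least 10 CPM, 4 (15.4%) were 2-fold, against 12.2% of all genes. The median level of the 28 genes was 116 CPM, and of all genes of 100 to 300 CPM only 3.62% were 2-fold. The 4 had means from 24.6 to 48.2 CPM, where the shares of all genes were 21.1% (10 to 30 CPM) and 6.05% (30 to 100 CPM). Itgae, the integrin chain CD103 that holds T cells in epithelia, was at 28.8, 29.4 and 74.3 CPM, high in replicate 3 alone. Lrrc32 (GARP, which tethers latent TGF-beta) was at 30.3, 15.4 and 35.3 CPM, low in replicate 2 alone. Klrg1, a receptor of terminally differentiated cells, was at 30.6, 65.7 and 48.3 CPM, and Entpd1 (CD39, which degrades extracellular ATP) at 20.2, 36.6 and 17.2 CPM; both were highest in replicate 2. Markers of other cells were highest in that library too: the B cell list summed to 5914, 20828 and 3577 CPM and the myeloid list to 719, 1718 and 475 CPM. The part of those cells in Klrg1, Entpd1 and Ikzf3 was not tested. Nt5e (CD73), which completes that route to adenosine, was at 145, 136 and 113 CPM, with replicate 3 lowest. Il10, an inhibitory cytokine of effector Tregs, was low in all libraries, at 8.18, 4.7 and 3.94 CPM. The plot of identity genes by library shows the 3 values of each gene side by side.

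**Figure D1:**
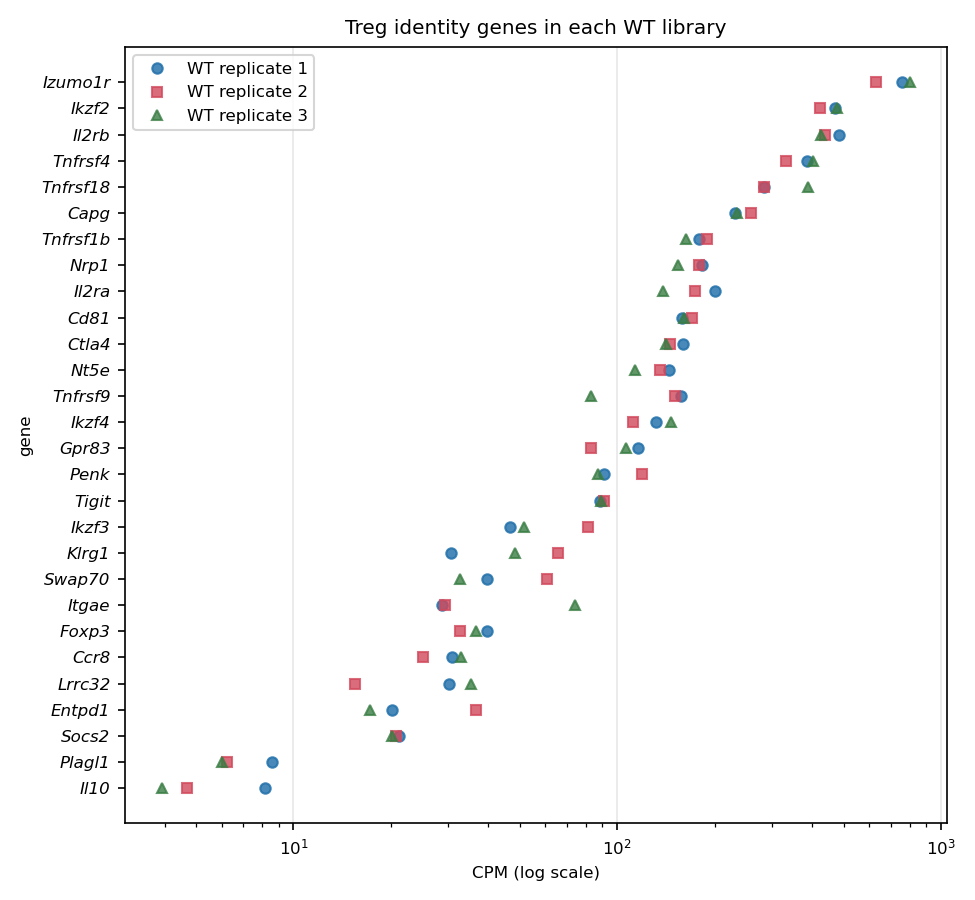
CPM (log axis) of the 28 Treg identity genes in each WT library, ordered by mean; a circle, square and triangle stand for replicates 1, 2 and 3. For most genes the symbols lie close together; they spread at Itgae, Lrrc32, Klrg1 and Entpd1, the 4 genes of at least 10 CPM with a ratio of 2 or more.

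Over all genes, 17093 had a mean of at least 1 CPM, of which 11701 were protein-coding. A mean of at least 100 CPM was reached by 1795 genes and of at least 1000 CPM by 120. The 100 highest genes held 21.8 ± 0.255% of the counts (SD, n = 3), and 644 genes together held 50% of the mean CPM. Of those 100 genes, 55 were protein-coding and 34 were pseudogenes. Reads of near-identical copies cannot be assigned with certainty, and 38 genes of at least 1000 counts over the 6 libraries had counts identical to those of another gene. Pseudogenes took 26.4, 25.1 and 29.0% of the counts.

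Genes of the cytoskeleton, of ubiquitin, of translation and of antigen presentation led the ranking by CPM. Actb, which encodes beta-actin, was first at 16736, 14648 and 17116 CPM. The polyubiquitin gene Ubb was at 6755, 7149.6 and 6939 CPM. The translation elongation factor gene Eef1a1 was at 4956, 5094 and 4799.6 CPM. These genes were close in all 3 libraries, with highest-to-lowest ratios of 1.17 (Actb), 1.06 (Ubb) and 1.06 (Eef1a1). The class I MHC heavy chain H2-D1 was at 4949, 4872 and 4723 CPM and H2-K1 at 3848, 3519 and 3535 CPM. The light chain B2m was at 3466, 3377 and 2784 CPM, lowest in replicate 3. Tmsb4x, the actin-sequestering thymosin, had a mean of 3968 CPM, Laptm5, a lysosomal protein that lowers antigen receptor levels, 3072, and Shisa5 2785. Others of the 20 highest nuclear coding genes were Lars2, Rplp0, Rps27rt, Rpl13, Actg1, Rpsa, Lrrc58, Coro1a and Rac2, with means from 1671 (Rac2) to 2343 CPM (Lars2). Rac2, a blood-cell GTPase that steers actin, was at 1672, 1674 and 1666 CPM. Among other kinds of gene, the mitochondrial ribosomal RNA mt-Rnr2 was at 6135, 5345 and 6815 CPM, the ubiquitin pseudogene Gm1821 at 4767, 5010.1 and 4907 CPM, and the nuclear RNA Malat1 at 4014, 3945 and 3452 CPM. The immunoglobulin heavy chain gene Ighm had rank 9 among all genes, at 2187, 7474 and 1810.1 CPM, and is taken up with the B cell markers.

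Among nuclear coding genes, Actb was first per kilobase of exon as well, at 6035 CPM per kb, and others of the 10 highest were Rps27rt at 5548, Ubb at 4148, B2m at 3731, Gm8797 at 3156, Tmsb4x at 2894, Gm11808 at 2329.9, Gm11361 at 2256 and Gm2000 at 2058. Short genes ranked higher: of the 100 highest nuclear coding genes, 74 were shared by both rankings, and ribosomal protein genes were 31 of the 100 by CPM and 37 of the 100 per kb. Genes with a Gm number, and Rps27rt, resemble other genes in sequence, so their counts are uncertain. The plot of abundance against rank places the main Treg genes on this scale.

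**Figure D2:**
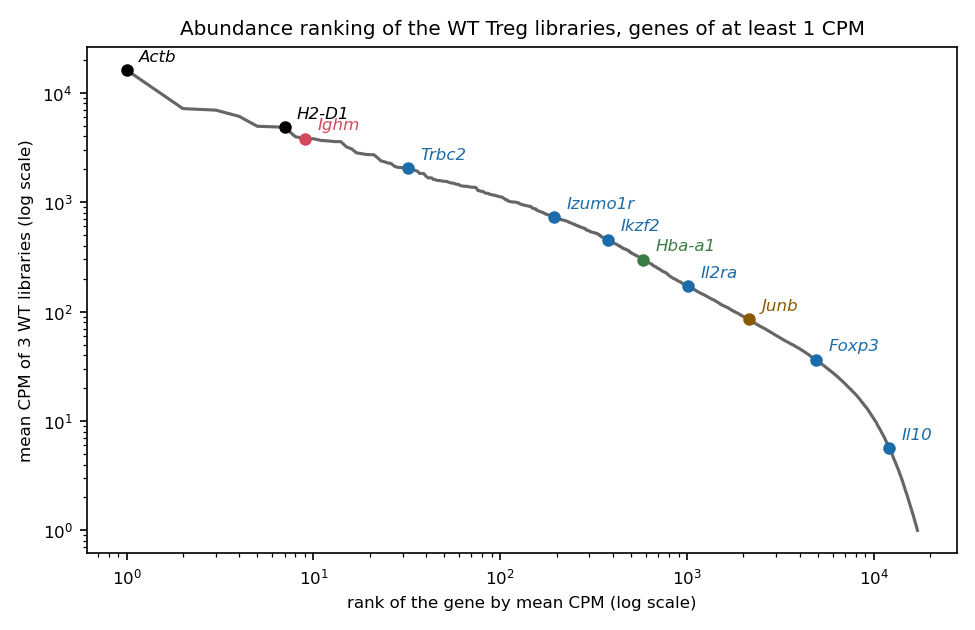
Mean CPM of the 3 WT libraries (log axis) against rank (log axis) for the genes of at least 1 CPM, with 11 named genes as points. Actb leads at 16167 CPM; Izumo1r, Ikzf2, Il2ra and Foxp3 lie at ranks 195, 377, 1013 and 4880, and Ighm and Hba-a1, genes of B cells and red blood cells, lie among the higher ranks.

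Mitochondrially encoded genes took 2.55, 2.20 and 2.13% of the counts (mean 2.29 ± 0.226%, SD, n = 3), with replicate 1 highest. The 83 cytosolic ribosomal protein genes took 5.75, 5.23 and 6.75% (mean 5.91 ± 0.770%, SD, n = 3), with replicate 3 highest. Pseudogenes, Rps27rt and genes with a Gm number were not counted in this share. T cell receptor genes took 0.666, 0.601 and 0.643%. Immunoglobulin genes took 1.13, 2.86 and 0.459%, so they exceeded the T cell receptor genes in replicates 1 and 2 and were below them in replicate 3.

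The T cell identity list (18 genes, all of at least 10 CPM) was even across libraries, with summed levels of 12586, 10743 and 11441 CPM. By share of reads the receptor constant regions led it: Trbc2 was at 2103, 1818 and 2199.9 CPM, Trbc1 at 1533, 1395 and 1634 CPM and Trac at 1204, 1142 and 1218 CPM. All 3 were lowest in replicate 2. The phosphatase gene Ptprc (CD45) was at 1182, 1270.5 and 977 CPM. The co-receptor Cd4 was at 392, 323 and 282 CPM, with replicate 3 lowest. In this list 13 of 18 genes were lowest in replicate 2, against 37% of all genes of at least 1 CPM. B cell and myeloid markers were highest in that library, as given above, and their part in this was not tested. The CD3 chains that carry the signal of the receptor did not share 1 order. Cd3d was at 517, 453 and 613 CPM and Cd3g at 758, 500.2 and 526 CPM, both under a ratio of 2. Cd3e was at 946, 329 and 302 CPM, high in replicate 1 alone, and was the 1 gene of the list (5.56%) that was 2-fold. Its exons overlap Gm48719. Of 40 T cell receptor V segments of at least 10 CPM, 3 were 2-fold, namely Trbv12-1 at 23.2, 10.5 and 11.4 CPM, Trbv26 at 13.2, 6.89 and 27.4 CPM and Trbv29 at 19.3, 4.88 and 11.6 CPM; in each of them replicate 2 was lowest.

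Signalling genes next to the receptor had about the spread of all genes of their level. Of 26 genes, all of at least 10 CPM and with a median of 104 CPM, 0 were 2-fold, and their median CV was 13.2%. Over all genes of 30 to 100 CPM the median CV was 15.0%, and 6.05% were 2-fold. Over those of 100 to 300 CPM the median CV was 12.6%, and 3.62% were 2-fold. The kinase Lck, which starts the signal, was at 962, 959 and 894 CPM, and the adaptor Lat at 573, 492 and 589 CPM. The adaptor Lcp2 (SLP-76) had a mean of 309 CPM and the kinase Zap70 of 249 CPM. Among 31 genes that the receptor induces within minutes to hours, 25 reached 10 CPM and 4 of those (16%) were 2-fold. The inhibitor gene Nfkbia was at 419, 387 and 382 CPM, and the RNA-decay factors Zfp36l1 and Zfp36 had means of 234 and 219.7 CPM, with Btg2 at 185. The 4 genes were the phosphatase genes Dusp2 at 40.9, 24 and 54.2 CPM, Dusp5 at 14.5, 10.3 and 24.2 CPM and Dusp1 at 9.17, 17.1 and 21.9 CPM, each highest in replicate 3, and the transcription factor gene Egr3 at 29.4, 13.3 and 18.4 CPM, highest in replicate 1. Nr4a1, an early reporter of receptor signalling, was at 56.7, 70.4 and 55.4 CPM.

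Junb (chromosome 8, 84974484 to 84978718, minus strand), the gene that the study deletes, was at 87.1, 77.5 and 89.5 CPM in these intact cells, a mean of 84.7 ± 6.32 (SD, n = 3). Its exons overlap those of Prdx2. In the list of 20 AP-1 and related leucine-zipper genes, 16 reached 1 CPM and 11 reached 10 CPM. By share of reads the leading members were Maf at 279, 187 and 287 CPM, Batf, a partner of JunB, at 105, 82.4 and 83.9 CPM, Junb, and Atf4 at 60.5, 50.0 and 55 CPM. Per length Junb was at 36.8 CPM per kb, Batf at 64.3 and Maf at 30.4. Of the other Jun genes, Jund was at 25.8, 20.6 and 42 CPM, highest in replicate 3, and Jun at 6.91, 8.09 and 10.4 CPM. Fos was at 21.7, 28.5 and 39.6 CPM. The 2-fold members were Jund and Atf7, the latter at 43.7, 29.9 and 19.6 CPM, which makes 2 of 11 (18.2%). Fosl1, Batf2, Maff and Batf3 each had a mean below 1 CPM.

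Of 54 T cell transcription factor genes, 54 reached 1 CPM and 50 reached 10 CPM. Ets1, a factor of all lymphocytes, was at 1096, 1102 and 794 CPM, lowest in replicate 3. Klf13 was at 461, 474 and 461 CPM, and Tcf7, a factor of resting and memory T cells, at 390.0, 356 and 370.2 CPM. Both were even across libraries. Gata3, the factor of type 2 helper cells and of many effector Tregs, was at 272, 204 and 213 CPM. Tbx21 (T-bet) was at 4.51, 5.17 and 5.97 CPM and Eomes at 2.49, 2.72 and 2.38 CPM. Per length Gata3 was at 57.8 CPM per kb, above Tbx21 at 2.1 and Eomes at 0.608. Bcl6, the factor of follicular T cells, was at 21, 16.2 and 18.3 CPM. Prdm1 (Blimp-1) was at 11.7, 11.6 and 11.2 CPM. Of the 50 genes, 3 (6%) were 2-fold, all highest in replicate 2: Irf8, an interferon-regulatory factor of B and myeloid cells, at 24.7, 107 and 25.9 CPM, Irf2 at 137, 158 and 74.4 CPM and Runx2 at 8.24, 17.4 and 11.8 CPM. B cell and myeloid markers were highest there too, and their part in these factors was not tested.

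In the pathway of the common-gamma-chain cytokines, which carries interleukin-2 signals to STAT5, 25 of 25 genes reached 1 CPM and 23 reached 10 CPM. The receptor chain Il2rg was at 1009, 954 and 776 CPM, Il2rb as given above, and the interleukin-7 receptor Il7r, kept low on most Tregs, at 169, 149 and 106 CPM. All 3 receptor genes were lowest in replicate 3. Per length Il7r was at 30.4 CPM per kb and Il2ra at 29.8, so Il7r RNA was not below Il2ra RNA in these libraries. The kinase Jak1 was at 413, 363 and 418 CPM. Stat5a and Stat5b, the mediators of interleukin-2 signals, had means of 54.7 and 91.6 CPM. Of the 23 genes, 2 (8.7%) were 2-fold: Jak3, the kinase bound to the gamma chain, at 144, 119 and 70.0 CPM, and Stat2 at 59.4, 74 and 29.1 CPM, both lowest in replicate 3. The list as a whole was lowest there in 18 of 25 genes, against 37.1% of all genes of at least 1 CPM.

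Resting and effector programmes were both present. Of 16 resting T cell genes, all of at least 10 CPM, 0 were 2-fold. Their median level was 165 CPM, and of all genes of 100 to 300 CPM only 3.62% were 2-fold. The antiproliferative gene Btg1 was at 974, 939.9 and 877 CPM and the factor gene Foxp1 at 276, 292 and 259 CPM. The lymph-node homing receptor Ccr7 was at 276, 249.6 and 219.8 CPM, and Klf2, a factor of T cell quiescence and recirculation, at 36.9, 32.9 and 53.1 CPM. Of 28 effector Treg genes, all of at least 10 CPM, 6 (21.4%) were 2-fold. The median level of the 28 was 80.5 CPM, and of all genes of 30 to 100 CPM 6.05% were 2-fold. By share of reads the leading members were Tnfrsf4, S100a10 at 227, 221 and 386 CPM, Maf, and the costimulatory receptor Icos at 241, 200.3 and 297 CPM. S100a10 was highest in replicate 3, and so was the calcium-binding gene S100a4, which was 2-fold at 12.9, 17.9 and 49.3 CPM. Il1rl1, the receptor for the alarmin interleukin-33, was at 8.21, 12.8 and 25.6 CPM and also highest there, as was Itgae. The other 3 were highest in replicate 2: the monocyte chemokine receptor Ccr2 at 20.04, 66.8 and 35.6 CPM, the galectin gene Lgals3 at 9.74, 34.1 and 10.9 CPM, and Klrg1. Ccr2 and Lgals3 are also genes of myeloid cells, whose markers were highest in the same library, as given below; their part in these values was not tested.

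The 22 genes of suppressive mediators held 21 of at least 1 CPM and 16 of at least 10 CPM, and 6 of those 16 (37.5%) were 2-fold. Icos, the inhibitory receptor Pdcd1 (PD-1) at 248, 201 and 239 CPM, the galectin Lgals1 at 118, 138 and 209 CPM and Ctla4 led by share of reads. The 2-fold genes did not share a direction. Lrrc32 and the ligand Cd274 (PD-L1), at 40.0, 19.8 and 37.4 CPM, were lowest in replicate 2. Il1rl1 was highest in replicate 3. Entpd1, the secreted suppressor Fgl2 at 12.2, 34.9 and 14 CPM, and the perforin gene Prf1 at 7.78, 22.4 and 10.5 CPM were highest in replicate 2. Prf1 is also in the list of CD8 T and NK markers. B cell, myeloid, CD8 T and NK markers were highest in replicate 2 as well, and their part in these 3 genes was not tested. Tgfb1, which encodes the inhibitory cytokine TGF-beta, was at 9.31, 2.07 and 7.93 CPM, under the level at which ratios were counted. In the TGF-beta pathway, 15 of 21 genes reached 10 CPM, led by share of reads by the repressor gene Skil at 104 CPM, the receptor Tgfbr2 at 91.9, Ski at 78.7 and Smad4 at 44.2. The 2-fold genes there were Lrrc32 and the ubiquitin ligase gene Smurf1, at 11.7, 10.7 and 24.6 CPM (2 of 15, 13.3%).

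Cytokine genes were mostly low. Of 36 listed, 22 reached 1 CPM and 10 reached 10 CPM. Il3, Il5, Il6, Il9, Il12b, Il17a and Il22 had 0 counts in all 3 libraries. A low level that these counts cannot show remains possible. Il16 was at 452, 419 and 311 CPM, the lymphotoxin chain Ltb at 194, 129 and 173 CPM and Penk as given above. Il2, which Tregs receive and hardly make, was at 4.71, 5.87 and 7.16 CPM. Il4 was at 5.52, 4.23 and 4.31 CPM and Ifng at 3.82, 3.42 and 4.76 CPM. Ebi3, a subunit of interleukin-35, was at 30.9, 38.8 and 25 CPM, and Il12a, the other subunit, at 0, 3.68 and 0.0248 CPM. The 1 gene of at least 10 CPM that was 2-fold (10%) was the chemokine gene Ccl5, at 124, 218 and 98.5 CPM, highest in replicate 2. Ccl5 is also in the list of CD8 T and NK markers.

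Of 21 chemokine and homing receptors, 17 reached 10 CPM, and 5 of these (29.4%) were 2-fold, all highest in replicate 2. They included the tissue receptors Cxcr6 at 36.5, 84.8 and 53.2 CPM and Ccr9 (gut homing) at 11.1, 26.1 and 10.9 CPM, Ccr2, and Ccr1 at 12.1, 20.4 and 0.595 CPM. Ccr1 was nearly absent from replicate 3. Markers of myeloid, CD8 T and NK cells were highest in replicate 2 too, as given below, and their part in these receptors was not tested. The leading members by share of reads were under 2-fold: Selplg, a ligand of selectins, was at 486, 480.4 and 450.1 CPM, and S1pr1, the receptor that lets T cells leave lymph nodes, at 173, 195 and 126 CPM. Of 10 integrin genes, all of at least 10 CPM, Itgae alone (10%) was 2-fold. Itgb2 was at 505, 583 and 349.6 CPM and its partner Itgal (together LFA-1) at 456, 377 and 415 CPM, with Itgb7 at a mean of 411 and Itga4 at 189 CPM. Of 22 matched costimulatory and coinhibitory receptors, 21 reached 10 CPM and 1 (4.76%) was 2-fold, the receptor Cd160 at 17, 33.6 and 11.9 CPM. Cd6 (mean 492 CPM) and Cd5 (314), which dampen receptor signals, stood beside Tnfrsf4 and Tnfrsf18 at the head of that list by share of reads. Per length they were at 61.7 (Cd6), 63.7 (Cd5), 273 (Tnfrsf4) and 209 (Tnfrsf18) CPM per kb. In the BCL2 family, 10 of 16 genes reached 10 CPM. By share of reads the survival genes Mcl1 at 187, 178 and 234 CPM and Bcl2 at 212, 143 and 139.6 CPM led, followed by Bcl2a1b (mean 89.4) and the death effector Bax (82.9). Per length Bcl2a1b was at 109 CPM per kb, Mcl1 at 58.4, Bax at 52.6 and Bcl2 at 18. The 1 gene of 10 (10%) that was 2-fold was Bcl2l11, which encodes the death activator BIM, at 22.2, 10.7 and 26 CPM.

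Of 20 housekeeping genes, 2 (10%) were 2-fold and the median CV was 11%. The largest ratio in the list was 4.42. Tfrc, the transferrin receptor that brings in iron, was 2-fold at 15.2, 34.4 and 26.1 CPM. The metabolic standard Gapdh was at 34.1, 32.9 and 48.5 CPM, 9.31 CPM per kb. The translation factor gene Eef2 had 476 CPM per kb and Ppia 189. How many reads of these genes went to similar copies was not tested, so the contrast between them is uncertain. Polr2a, a subunit of RNA polymerase II, was at 90.8, 85.9 and 87.3 CPM and Pgk1 at 98.9, 91.2 and 98.2 CPM. Genes of the cytoskeleton had the lowest median CV of the lists with 10 or more genes of at least 10 CPM, at 7.32%, and 1 of 29 (3.45%) was 2-fold: Cap1, which recycles actin, at 189, 210.3 and 479 CPM, high in replicate 3 alone. Of 21 genes of class I presentation 0 were 2-fold, with a median CV of 9.38%. Their median level was 406 CPM. Of all genes of 300 CPM or more only 1.73% were 2-fold, with a median CV of 13.0%. H2-Q7, a non-classical class I gene, was at 1635, 1663 and 1532 CPM. Among chaperones, Hspa8 was at 1592, 1385 and 1235 CPM, Hsp90ab1 at 1041, 920.4 and 1051 CPM and Cct5 had a mean of 343 CPM. The 1 of 15 (6.67%) that was 2-fold was Hspa5, the chaperone of the endoplasmic reticulum, at 422, 588 and 259 CPM. In glycolysis, Eno1, Aldoa, Pkm and Ldha had means of 553, 515, 509 and 429 CPM, and 1 of 15 genes (6.67%) was 2-fold, the muscle-type phosphofructokinase gene Pfkm at 8.47, 8.29 and 16.7 CPM.

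Spread was smaller in genes of higher level. The median CV was 36.6% at 1 to 10 CPM, 21.3% at 10 to 30, 15.0% at 30 to 100, 12.6% at 100 to 300 and 13.0% at 300 CPM or more. Counting error alone gave a median of 2.83% over the 10165 genes, so the spread between libraries exceeded it in most genes: 92.6% had a CV over 2 times their counting error. The protein-coding genes of at least 10 CPM with the smallest CVs were 4930503L19Rik, Rac2, Chp1, Ptpn7, Smarce1, Psma3, Eef1b2, Selenop, Aqr and Rpl3, with CVs from 0.188% (4930503L19Rik) to 0.667% (Rpl3). Ptpn7, a phosphatase of blood cells, was at 198, 196 and 198 CPM, and Psma3, a proteasome subunit, at 137, 137 and 136 CPM. In 9 of these 10 genes the CV was below that of counting error alone, so they are the extremes of a ranking and not shown to vary less than other genes. The plot of CV against level sets the lists on this background.

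**Figure D3:**
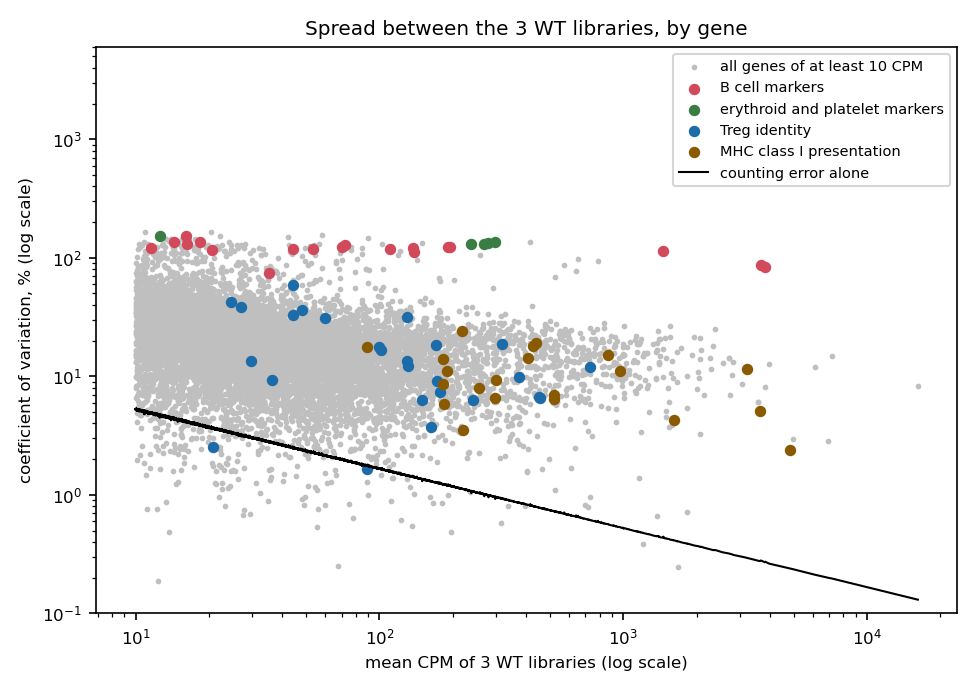
CV between the 3 WT libraries (%, log axis) against mean CPM (log axis) for the 10165 genes of at least 10 CPM (grey), with the members of 4 lists coloured and the CV that counting alone gives as a black line. B cell and erythroid markers lie between 74.7% (Cd22) and 154% (Slc4a1), whereas Treg identity and class I presentation genes lie within the grey cloud.

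Many of the genes that varied most were those of other blood cells. The B cell list had 20 of 21 genes matched, and all 20 were highest in replicate 2; 19 of them were lowest in replicate 3. All 19 genes of at least 10 CPM were 2-fold, against 12.2% of all genes. Their summed level was 5914, 20828 and 3577 CPM. Cd79a, a signalling chain of the B cell receptor, was at 45.3, 259.5 and 25.9 CPM and its partner Cd79b at 55.5, 316 and 44 CPM. The defining surface marker Ms4a1 (CD20), at 23.6, 170.2 and 17.8 CPM, followed the same order. The B lineage factor Pax5 was at 3.73, 27.5 and 3.39 CPM. The antibody genes Ighm, at 2187, 7474 and 1810.1 CPM, and Igkc, at 2617, 7239 and 1155 CPM, were highest in replicate 2 as well, and so was Cd74, which guides class II MHC molecules, at 656, 3377 and 350.2 CPM. The complement receptor Cr2 and the IgE receptor Fcer2a were nearly absent from replicate 3, Cr2 at 3.41, 44.4 and 0.57 CPM and Fcer2a at 5.87, 36.8 and 0.322 CPM. Other 2-fold members (H2-Aa, H2-Ab1, H2-Eb1, Ly6d, Ighd, Cd22, Fcmr, Blk and Ebf1) had ratios between 3.4 (Cd22) and 15.7 (Ebf1). In RNA of pooled cells, fewer cells of a type and less RNA per cell cannot be told apart. No B cell marker was at 0 in any library.

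Plasma cell, myeloid, neutrophil and cytotoxic markers showed the same library as highest. Of 9 plasma cell markers of at least 1 CPM, 8 were highest in replicate 2, and the list summed to 2554, 4424 and 474 CPM. All 7 of at least 10 CPM were 2-fold: Jchain at 502, 1635 and 227 CPM, Igha at 886, 967 and 69.1 CPM, Ighg2c, Ighg1, Iglc1, Mzb1 and Xbp1. Iglc1 alone of these was highest in replicate 1, at 319, 229 and 58.2 CPM. Of 128 immunoglobulin genes of at least 10 CPM, 127 were 2-fold, with Igkv6-23 the exception, at 24.9, 33.2 and 18.1 CPM; 109 of the 127 were highest in replicate 2 and 119 lowest in replicate 3. Of 19 myeloid markers of at least 1 CPM, 19 were highest in replicate 2, and the list summed to 719, 1718 and 475 CPM. Lyz2, the lysozyme of macrophages, was at 159, 567 and 51 CPM. Among the 11 of at least 10 CPM, 9 (81.8%) were 2-fold: Lyz2, Lyz1, Cybb, Tyrobp, Fcer1g, Csf1r, Mpeg1, Cd68 and Itgam. The exceptions were the protease gene Ctss, at 274, 359.8 and 245 CPM, and the protease inhibitor gene Cst3, at 92.9, 161 and 91.8 CPM. The 9 neutrophil markers of at least 1 CPM were all highest in replicate 2, and the 6 of at least 10 CPM (S100a8, S100a9, Retnlg, Ngp, Csf3r and Cxcr2) were 2-fold; S100a8 was at 41.3, 133 and 31.8 CPM. Ly6g, which defines neutrophils, stayed below 0.1 CPM in every library. Of 18 CD8 T and NK markers, 17 were highest in replicate 2 (Nkg7 was not), with sums of 237, 466 and 204 CPM. Ccl5, Gzma, Cd8b1 and Prf1 were the 4 of 5 genes of at least 10 CPM that were 2-fold, and Cd8a was at 1.94, 11.3 and 1.71 CPM. Over all genes of at least 1 CPM, 34% were highest in replicate 2.

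Markers of red blood cells were highest in another library. The alpha-globin gene Hba-a1 was at 29.3, 104 and 763 CPM and the beta-globin genes Hbb-bs at 24.8, 111 and 673 CPM and Hbb-bt at 20.6, 97.6 and 596 CPM. The near-identical copy Hba-a2 was at 28.3, 100.1 and 712 CPM. In each, replicate 3 was highest and replicate 1 lowest. Slc4a1, the anion exchanger band 3 of the red cell membrane, had 0 counts in replicate 1, 2.83 CPM in replicate 2 and 34.8 CPM in replicate 3, at least 402-fold higher than in replicate 1 when the lowest library is set to the floor of 3 counts. The erythroid and platelet list summed to 111, 421 and 2804 CPM, and all 5 genes of at least 10 CPM were 2-fold with replicate 3 highest. Alas2, the first enzyme of haem synthesis in red cells, was at 2.2, 1.08 and 11.5 CPM. The platelet genes Pf4, Ppbp, Gp9, Gp1bb and Treml1 stayed below 1 CPM. Outside that list, the erythroid genes Car2 at 14.1, 54 and 382 CPM, Rhd at 1.24, 3.39 and 37.3 CPM, Ermap at 1.82, 2.95 and 27.7 CPM and Cldn13 at 0.116, 0.759 and 31.8 CPM had the same order, and were named by the size of their ratio or of their step from the other libraries. Which cells gave this RNA was not tested.

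The globin promoters are shown because these genes had the same order across libraries. Each line holds the 250 bases before the RefSeq start (GRCm38.p6, 5′ to 3′ on the gene's strand), with the GATA-type letters GATAAG in capitals. The windows are chr11:32283422-32283671 on the plus strand for Hba-a1, chr7:103827929-103828178 on the minus strand for Hbb-bs and chr7:103813924-103814173 on the minus strand for Hbb-bt.
Hba-a1: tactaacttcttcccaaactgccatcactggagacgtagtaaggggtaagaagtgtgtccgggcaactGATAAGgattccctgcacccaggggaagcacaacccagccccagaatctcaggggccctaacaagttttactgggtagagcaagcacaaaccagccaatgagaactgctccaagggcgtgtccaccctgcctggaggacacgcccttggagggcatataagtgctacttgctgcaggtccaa
Hbb-bs: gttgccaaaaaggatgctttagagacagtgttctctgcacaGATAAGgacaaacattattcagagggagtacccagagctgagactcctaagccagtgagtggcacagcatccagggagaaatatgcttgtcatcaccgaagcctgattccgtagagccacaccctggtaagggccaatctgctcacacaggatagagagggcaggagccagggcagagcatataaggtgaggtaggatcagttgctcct
Hbb-bt: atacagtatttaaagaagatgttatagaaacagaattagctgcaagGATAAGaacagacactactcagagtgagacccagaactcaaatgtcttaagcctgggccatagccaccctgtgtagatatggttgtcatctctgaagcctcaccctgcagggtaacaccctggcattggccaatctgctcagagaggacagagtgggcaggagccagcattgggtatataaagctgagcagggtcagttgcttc
The letters begin 182 bases before the start in Hba-a1, 209 in Hbb-bs and 204 in Hbb-bt. On either strand they stood in the window of 5 of the 11 erythroid and platelet genes with a window (Hba-a1, Hba-a2, Hbb-bs, Hbb-bt and Gp9), in 1 of 18 Treg identity genes (Ccr8), in 0 of 10 B cell genes and in 6.6% of all 27025 windows. Hba-a1 and Hba-a2 are near-identical copies, so the 5 genes are not separate cases. The motif was chosen after these sequences had been read, and a match is a description.

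Other marker lists stayed low or even. Conventional CD4 T helper markers summed to 278, 299.9 and 247 CPM. Ccr9 was the 1 of 7 genes of at least 10 CPM (14.3%) that was 2-fold, and Il17a was at 0. Cd40lg, the helper ligand for B cells, was at 24.7, 22.7 and 17.3 CPM, and Cxcr5, which leads T cells into follicles, at 93.5, 94.4 and 69.5 CPM. Tnfsf8, Igfbp4 and Dapl1 had means of 63.3, 30.4 and 26.4 CPM. Pancreatic acinar markers summed to 6.97, 19.8 and 13.5 CPM over 21 genes. By CPM Cela1 was the highest of them, with a mean of 3.88, followed by Zg16, Cela2a and Prss2, and Cpb1 was at 0. Of 16 stromal, endothelial and epithelial markers, Pecam1 (CD31, also made by leukocytes) was at 110.3, 134 and 85.9 CPM, and each of the others, Epcam, Cdh1 and Vwf among them, had a mean below 3 CPM, with Col3a1, Dcn, Pdgfra and Ccl21a at 0. The plot of list sums by library sets these beside the T cell lists.

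**Figure D4:**
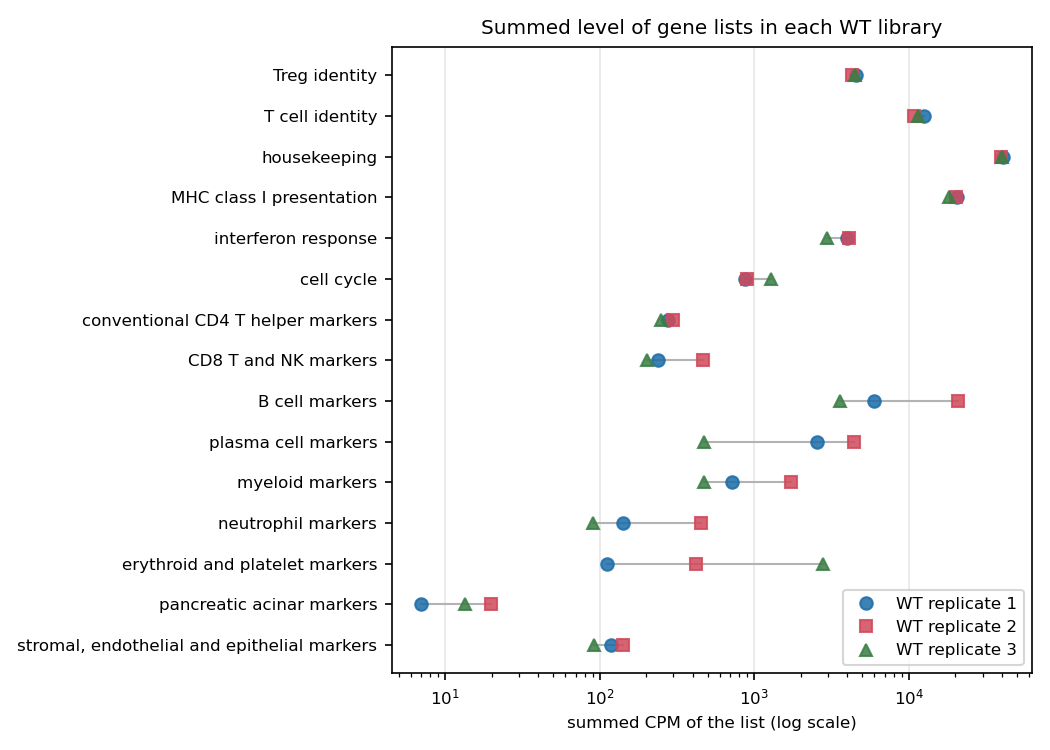
Summed CPM (log axis) of 15 gene lists in WT replicates 1 (circle), 2 (square) and 3 (triangle), joined by a line from lowest to highest. Treg identity, T cell identity, housekeeping and class I lists hardly differ between libraries; B cell, myeloid and neutrophil markers are highest in replicate 2, and erythroid markers and cell cycle genes in replicate 3.

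Cell cycle genes leaned to replicate 3. Of 30 genes, all of at least 1 CPM, 24 were highest there, against 37.7% of all genes, and the list summed to 869.8, 898 and 1289 CPM. Of 22 genes of at least 10 CPM, 8 (36.4%) were 2-fold, all with replicate 3 highest. The proliferation marker Mki67 was at 43.2, 65.9 and 99.8 CPM. The ribonucleotide reductase gene Rrm2 was at 45.5, 50.8 and 97.8 CPM and the thymidine kinase gene Tk1 at 13.2, 22.9 and 37.7 CPM. The mitotic cyclins Ccna2, at 14.4, 10.1 and 33.4 CPM, Ccnb1, at 5.93, 10.8 and 22.2 CPM, and Ccnb2, at 8.24, 11.4 and 24.8 CPM, had the widest ratios, and Ube2c and Birc5 completed the 8. By share of reads the list was led by the replication genes Mcm6, at 99.5, 72.4 and 102 CPM, and Pcna, at 75.3, 84.1 and 102 CPM, in which replicate 3 stood less apart. Replicate 3 was also the library with the most erythroid RNA (sums of 111, 421 and 2804 CPM), whose part in this was not tested.

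Interferon response genes leaned the other way. Of 30 genes, all of at least 1 CPM, 24 were lowest in replicate 3 and 0 were highest there, against 37.1% and 37.7% of all genes. The list summed to 4012, 4109 and 2976 CPM. Of 27 genes of at least 10 CPM, 7 (25.9%) were 2-fold. Ifit3, an antiviral gene, was at 29.9, 42.9 and 9.02 CPM and Oasl2 at 18.1, 40.2 and 10.3 CPM. The regulator Usp18 was at 107, 128 and 53.4 CPM and the GTPase gene Irgm1 at 125, 144 and 63.8 CPM. In these genes, and in Stat2, replicate 2 was highest. Iigp1, at 97.4, 66.3 and 46.3 CPM, and Ifit1, at 74.9, 60.2 and 36.8 CPM, were highest in replicate 1. The highly expressed members Ifi27l2a (mean 321 CPM), Tgtp2 (297) and Ifi47 (265) had ratios from 1.17 (Ifi27l2a) to 1.69 (Ifi47). Replicate 2 was the library with the most B cell and myeloid RNA, and replicate 3 that with the least; the part of those cells in the interferon genes was not tested.

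Over all 1237 2-fold genes, replicate 2 was highest in 609 (5.99% of the 10165 genes), replicate 3 in 355 (3.49%) and replicate 1 in 273 (2.69%). The order from replicate 2 through 1 to 3 held 481 of them (38.9%) and 20.6% of all 10165 genes. Immunoglobulin genes were 127 of the 1237 and members of marker lists of other cell types 51. A ratio of 10 or more was seen in 117 genes: 43 immunoglobulin genes, 57 others with replicate 2 highest, 15 with replicate 3 highest and 2 with replicate 1 highest (Rab6b and Ncmap). Immunoglobulin genes and all members of those marker lists were then left out, a choice made after the data were seen. The median CV of the genes that remained was 16.7%, against 17.0% of all 10165 genes. Genes outside the lists, such as Plcg2, Ccl6 and Car2, stayed in, so the remaining set still holds genes of other cells. In pairs, replicates 1 and 2 differed by 2-fold in 5.03% of the genes (median absolute log2 difference 0.23), replicates 1 and 3 in 5.72% (0.28) and replicates 2 and 3 in 8.79% (0.35). The names of the deposited tables carry 1 number in common for replicates 1 and 2 and another for replicate 3. What it stands for is not stated in the sources used here, and it cannot be told apart from replicate 3 itself.

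**Figure D5:**
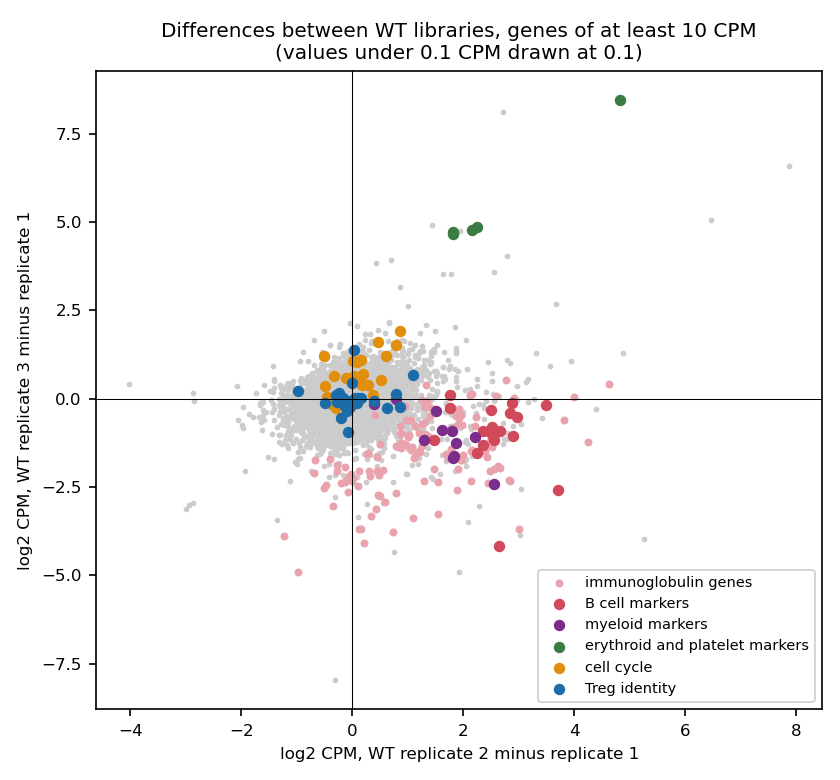
Difference in log2 CPM of replicate 2 from replicate 1 (x axis) and of replicate 3 from replicate 1 (y axis) for genes of at least 10 CPM, values under 0.1 CPM being drawn at 0.1. B cell, myeloid and immunoglobulin genes extend to the right and down, erythroid genes upward, cell cycle genes lie mostly above 0, and Treg identity genes gather near the origin.

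The 20 protein-coding genes with the largest ratios included, beside the erythroid, B cell and myeloid genes above, Rab6b, Slc15a2, Klk1, Igsf6, Gdpd3, Dok3, Fgr, Trf, Ccl6 and Plcg2. Igsf6, Dok3, Fgr, Ccl6, Klk1, Trf and Plcg2 were highest in replicate 2 and lowest in replicate 1 or 3. Ccl6, a myeloid chemokine gene, was at 12, 70.2 and 2.13 CPM, and Plcg2, the phospholipase of B cell receptor signalling, at 1.16, 34 and 2.85 CPM. A few genes were at or near 0 in 1 library and well above it in the others. Slc15a2, a peptide transporter gene, had 0 counts in replicate 1 but 23.4 CPM in replicate 2 and 9.64 CPM in replicate 3. Rab6b, a Golgi GTPase gene, was at 25.1 and 20.1 CPM in replicates 1 and 2 and had 1 count in replicate 3. Gdpd3, a lipid phosphodiesterase gene, was at 1.07, 94.6 and 35.7 CPM, and its exons overlap Gm9967.

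By library, the protein-coding genes of at least 10 CPM farthest above both others in replicate 1 were Stx18 at 24.5, 6.42 and 5.9 CPM, Cd3e, Ncmap at 28.6, 11.3 and 2.63 CPM, Dnah7a at 20.01, 8.38 and 8.18 CPM and Npat at 31.7, 12.8 and 13.4 CPM. Farthest below in replicate 1 were Slc15a2, Gdpd3, Slc4a1, Add2 and Cldn13, 3 of them genes of the red cell. In replicate 2 the genes farthest above were Themis2, a signalling gene of B and myeloid cells, at 2.92, 61.3 and 2.4 CPM, the iron exporter gene Slc40a1 at 3.3, 35.5 and 2.23 CPM, Cr2, Plcg2 and Blk. Farthest below in replicate 2 were Nav2 at 37.7, 2.34 and 50.3 CPM, Arhgap31 at 37.4, 5.14 and 41.9 CPM, Acads at 15.7, 2.2 and 15.1 CPM, Rgs16 at 19.8, 4.7 and 25.1 CPM and Smarcd1 at 20.6, 5.26 and 17.7 CPM. In these 5 genes replicates 1 and 3 were alike. Replicate 3 stood above the others in Cldn13, Slc4a1, Rhd, Ermap and Zfp990, the last at 2.69, 3.62 and 38.4 CPM, and below them in Rab6b, Igsf6, Ccr1, Fcer2a and Klk1. Among ribosomal protein genes, 2 of 80 were 2-fold, Rpl29 at 62.5, 117 and 159.8 CPM and Rpl35a at 229, 149.7 and 302 CPM, both highest in replicate 3. These replicate-specific genes are the ends of a ranking, and each rests on 1 library.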

How the data were processed

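RNA of sorted Tregs was sequenced as single reads of 50 bases on an Illumina HiSeq after library making with low-input kits, per the labels' protocols, which name no molecular identifiers. For each library the authors deposited unnormalised counts over 53379 Ensembl identifiers. The tools were featureCounts, STAR 2.3 and bcl2fastq 2.19.0.316 on mm10, per the submitters' processing notes. Their options, the annotation release and whether strand was used are not stated in the sources used here. Symbols, types, exon lengths and positions came from GENCODE M21 by identifier: 53274 matched, and the 105 others held 0.0899% of the WT counts on average. CPM values use edgeR 4.0.16 (R 4.3.3) TMM factors over all 6 libraries and the 20475 genes that filterByExpr kept, and CPM per kb divides by the length of the union of exons. WT libraries held 33784183 to 41231173 counts; counting error alone gave a median CV of 2.83% for genes of at least 10 CPM. A lowest library under 3 counts was set to 3 counts in ratios. The spread script was checked on simulated counts. No test was made, because the 3 libraries are 1 group. DESeq2 1.42.0 size factors and other scalings, filters and left-out libraries were tried.

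The members, the 33 gene lists (712 entries, 709 matched, 602 different genes; Cd244, Faim3 and Ahsp were not matched) and the tests were chosen with earlier results of these data known. Named genes are the 20 highest nuclear coding genes by CPM and 10 per kb, each list's 4 highest members, its defining markers at or near 0 and its 2-fold members, the 20 largest ratios and 10 smallest CVs among coding genes of at least 10 CPM, the 5 farthest above and below in each library, all Treg identity genes and Junb. Some genes that this rule names are not reported here. The Trbv, Igkv, Rpl and erythroid genes outside these were named after their values were seen. Promoter sequences are RefSeq windows of GRCm38.p6, 1 per gene symbol. Figures were drawn with matplotlib 3.10.9.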

Additional observations from a re-analysis of the deposited data

How the results depend on the processing

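No paired analysis was possible because every result comes from 1 group and from no test. Over 11 results and 78 alternatives, 70 values were counted as the same. For means and shares this was a move below the SD between libraries, and for counts a move below 1.5 times. The median CV has no such SD, and the limit used for it is not stated here. Part of this tally was fixed in advance. With 1 of 3 libraries left out a mean cannot move by as much as its SD. Shares of raw counts do not change with the TMM factors. The tally is therefore no measure of how robust the results are. With mitochondrially encoded genes left out, the 100 highest genes held 21.2% of the counts. The number of 2-fold genes was 4852 of 17093 with a minimum mean of 1 CPM and 288 of 5660 with one of 30 CPM. With 1 library left out it lay between 508 of 10026 and 920 of 10165. Because 2 libraries span less than 3, the counts with 1 library left out are lower by construction in part. The median CV was 22.1% with a minimum mean of 1 CPM, and lay between 11.1% and 17.0% with 1 library left out. Scaling changed little. The number of 2-fold genes was 1227 of 10174 with TMM factors of the WT libraries alone. It was 1238 of 10157 with DESeq2 size factors and 1239 of 10166 with library totals alone. The mean of Foxp3 lay between 36.2 and 37.2 CPM over the scalings. Leaving out genes whose exons overlap another gene, or that share its counts, left 849 2-fold genes of 6469. With 3 libraries an SD is itself imprecise, counts below about 10 CPM were not read as ratios, and reads of copies, overlapping genes and antisense genes cannot be told apart.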
